A study of Mus musculus with 12 samples.

Results

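The 40 genes described here encode the proteasome of the mouse: the 7 subunits of the alpha ring, the 7 of the constitutive beta ring, the 3 catalytic subunits of the immunoproteasome, 6 ATPases and 11 other subunits of the regulatory cap, 3 chaperones of cap assembly and the 3 subunits of the activator PA28. They were chosen by name from the 52632 genes of the deposited table, with no filter on their values but with earlier results of these data known. All 40 were among the 19288 genes tested. Their RNA was measured in CD4 T cells flow-sorted from the mononuclear cells of mouse kidney, in 12 libraries that form 4 groups of 3. Wild-type (WT) C57BL6/J mice and mice labelled CD4 Keap1 KO on the same background were either operated on or kept as controls. The operation, ischemia reperfusion injury (IRI), clamped both renal pedicles for 30 minutes, and the cells were taken 24 hours after it. The labels do not say whether controls had a sham operation, which promoter or allele removed Keap1, or the age and sex of the mice. The WT mice were bought and the KO mice bred in house, so genotype and source cannot be told apart. The design text calls the 3 samples of each group replicates. Where these are not separate animals, the p-values below measure only the spread between samples.

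The proteasome is the large protease that degrades proteins marked with ubiquitin. Its barrel-shaped core stacks alpha rings, which gate the entrance, on beta rings, which hold the active sites. The constitutive catalytic subunits Psmb5 (chymotrypsin-like), Psmb6 (caspase-like) and Psmb7 (trypsin-like) can be replaced by Psmb8, Psmb9 and Psmb10, which are induced by interferon gamma and are abundant in lymphocytes. A core built with those subunits, the immunoproteasome, is known for cutting peptides that suit presentation on MHC class I. The cap unfolds substrates with its ATPases, and PA28 is an alternative cap without ATPases. Transcription of proteasome genes is driven by NRF1 (Nfe2l1) and, for some subunits, by NRF2 (Nfe2l2), which KEAP1 holds down.

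Promoter sequences of 4 members are printed because the results below turn on these genes: Psmb8 and Psme1 changed with IRI in both genotypes, Psmb9 shares its upstream region with Tap1, and Psmb5 is the constitutive counterpart of Psmb8. In GENCODE M21 (GRCm38) Psmb8 spans chr17:34197721-34201454, Psmb9 chr17:34181987-34187764, Psme1 chr14:55578123-55581529 and Psmb5 chr14:54614119-54618022. Psmb10 lies apart from Psmb8 and Psmb9, at chr8:105935735-105938444, and Psmc5 at chr11:106256154-106263120. Each printed window runs from 250 bases before to 30 bases after the start of the gene in RefSeq (build GRCm38.p6), 5′ to 3′ on the strand of the gene. Capitals mark a match to an interferon-gamma activated motif in Psmb8, to paired IRF half-sites in Psme1, to the core of an antioxidant response element in Psmb5, and, in Psmb9, the 25 bases that already lie within Tap1.
Psmb8, chr17:34197945-34198224, plus strand: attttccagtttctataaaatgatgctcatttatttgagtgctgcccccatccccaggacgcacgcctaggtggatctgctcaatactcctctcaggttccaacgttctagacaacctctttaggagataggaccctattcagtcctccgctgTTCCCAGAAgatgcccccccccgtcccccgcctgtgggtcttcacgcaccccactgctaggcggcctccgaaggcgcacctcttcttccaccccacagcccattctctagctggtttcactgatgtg
Psme1, chr14:55578244-55578523, plus strand: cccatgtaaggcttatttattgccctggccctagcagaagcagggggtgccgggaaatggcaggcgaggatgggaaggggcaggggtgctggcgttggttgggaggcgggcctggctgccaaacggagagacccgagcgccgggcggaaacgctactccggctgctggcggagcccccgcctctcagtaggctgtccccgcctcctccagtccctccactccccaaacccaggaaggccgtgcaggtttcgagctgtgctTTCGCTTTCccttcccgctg
Psmb9, chr17:34187301-34187580, minus strand: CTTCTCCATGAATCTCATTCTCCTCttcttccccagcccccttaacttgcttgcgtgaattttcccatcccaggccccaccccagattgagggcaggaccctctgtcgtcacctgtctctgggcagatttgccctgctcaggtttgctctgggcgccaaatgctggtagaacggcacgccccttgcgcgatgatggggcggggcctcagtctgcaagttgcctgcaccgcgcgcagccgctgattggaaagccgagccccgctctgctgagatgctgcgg
Psmb5, chr14:54617966-54618245, minus strand: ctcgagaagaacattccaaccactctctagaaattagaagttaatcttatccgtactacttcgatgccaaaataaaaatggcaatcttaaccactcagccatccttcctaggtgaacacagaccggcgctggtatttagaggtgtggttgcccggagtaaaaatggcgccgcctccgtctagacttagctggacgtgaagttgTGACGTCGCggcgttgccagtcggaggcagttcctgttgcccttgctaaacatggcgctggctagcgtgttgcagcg
Relative to the RefSeq gene start, the match in Psmb8 began 97 bases before it, that in Psmb5 47 bases before it and that in Psme1 10 bases after it. GENCODE M21 places the starts of Psmb8, Psme1 and Psmb9 further upstream. The printed windows of Psmb8, Psme1 and Psmb9 therefore lie wholly inside their GENCODE gene models. RefSeq windows, 300 bases long with 50 after the start, were found for 34 of the 40 members (37 windows). The motif TTCNNNGAA, read on both strands, matched 2 of these windows (Psmb8 and Psmd2, an organizing subunit of the cap) and 8.30% of all 32851 RefSeq windows. GAAANNGAA matched 6 (Psmb3, Psmb4, Psmc2, Psmd4, Psmd9 and Psme1) against 8.56% of all windows. TGACNNNGC matched 5 (Psmb5, Psmb6, Psmc6, Psmd12 and Psmd9) against 12.4% of all windows. These matches describe letters in a short window and were not tested for binding.

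Values are FPKM (fragments scaled by gene length and library size), rescaled between libraries by median ratios, unless they are said to be as deposited. Tests used limma on log2(FPKM + 1), with p-values adjusted over all 19288 tested genes, a threshold of 0.05 and 1 fit to all 12 libraries. Differences on this scale understate the change of low genes. The deposited FPKM of a library summed to between 739969 and 2089551, and the scaling factors ran from 0.755 to 1.34. KO control replicate 1 stood apart, with Malat1 listed at 0 against at least 2271 in each other library, and 601132 FPKM of small nucleolar RNA against at most 166319. Earlier results of these data also set WT control replicate 3 and WT IRI replicate 3 apart, so the counts of proteasome genes that passed, and the ratios of catalytic subunits, were repeated without those 3 libraries. Keap1 itself read 9.30, 9.35 and 10.7 in the WT controls and 8.94, 6.56 and 7.996 after IRI. It read 4.95, 5.73 and 6.35 in the KO controls and 5.41, 5.68 and 4.19 in KO after IRI, lower in KO in all 6 libraries (-0.61 ± 0.11 SE, adjusted p = 0.0484). All 10 CD4 T cell markers were detected in every library. Of 6 endothelial markers, Kdr, Tek, Emcn and Plvap stayed below 1 FPKM throughout, Cdh5 reached 1.19, and Pecam1, which leukocytes also express, read 22.9 to 42.3. Summed markers of other cells ranged over the 12 libraries from 3.75 to 294.6 for the proximal tubule, from 1.47 to 274.6 for the loop and distal tubule, from 72.2 to 226.1 for macrophages and from 6.27 to 881.7 for B and plasma cells.

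No member read 0 in any library. The lowest value was 1.65, that of Psmd10 in WT IRI replicate 3. The mean levels of the 40 genes over the 12 libraries spanned Psma5, at 4.51, to Psmb8, at 94.7. Psme1, at 76.9, came next to Psmb8, while Psmb10 (34.7) and Psmb9 lay nearer the middle of the 40. In the alpha ring the highest mean was that of Psma7 (51.5), and in the constitutive beta ring Psmb4 (50.4) was highest and Psmb5 (5.11) lowest. Psmb9 had the lowest mean of the immunoproteasome genes (30.4) and Psme3, a nuclear form of PA28, that of PA28 (29.8). Among the ATPases the means ran from 17.1 (Psmc2) to 28.5 (Psmc3), and in the lid, the part of the cap that removes ubiquitin, from 13.9 (Psmd12) to 32.5 (Psmd8). Psmd4, a ubiquitin receptor of the base, averaged 60.8 and its scaffold Psmd1 20.7. The chaperones Psmd5 and Psmd10 averaged 17.9 and 4.98. The 3 immunoproteasome subunits gave 72.7% ± 1.45 (SD, n = 3) of the summed FPKM of the 6 catalytic subunits in WT controls and 72.4% ± 1.51 in KO controls.

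After IRI the immunoproteasome genes fell, most plainly Psmb8, while most of the constitutive proteasome did not pass the test. Averaged over genotype, 5 of the 40 genes were lower and 0 higher: Psmb8, Psmb9, Psmb10, Psme1 and the ATPase Psmc5. Of all 19288 tested genes, 7.33% were lower and 1225 higher in that comparison, and 13.7% passed in either direction. In WT alone the same 5 genes were lower, against 4.68% of all genes, and in KO alone 2 of the 40, Psmb8 and Psme1, against 1.1% of all genes. Without the 3 libraries that stand apart, 5 members were lower averaged, 3 in WT and 0 in KO, against 5.29%, 2.23% and 0.306% of all genes. In sorted bulk cells, fewer cells of a type that expresses a gene and less of its RNA per cell cannot be told apart.

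Psmb8, the chymotrypsin-like immunosubunit, read 111.7, 107.4 and 137.1 in the WT controls and 52.3, 52.4 and 51.7 after IRI. In KO it read 143.1, 112.6 and 128.5 in controls and 78.5, 77.2 and 84.2 after IRI. An antisense gene, Gm20496, overlaps Psmb8 and read 11.1 FPKM as deposited, so reads of the pair may be exchanged. All 6 IRI libraries lay below all 6 controls, and the 3 WT IRI libraries had a mean of 52.1 with an SD of 0.426. The fall was -1.16 ± 0.13 (SE) in WT (adjusted p = 0.00109) and -0.67 ± 0.13 in KO (adjusted p = 0.0320). The WT and averaged results passed in each of 24 and 23 alternative settings, but the KO result passed in 15 of 24 (adjusted p from 0.00483 to 0.132) and was lost without KO control replicate 1 (0.129), KO control 3 (0.0931), KO IRI 2 (0.110) or KO IRI 3 (0.0661).

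Psmb9, the caspase-like immunosubunit, read 35.6, 38.9 and 41.0 in the WT controls against 18.9, 12.9 and 25.4 after IRI. The KO controls held 46.0, 36.0 and 44.8 and the KO IRI libraries 23.4, 23.2 and 19.3. The groups did not overlap in either genotype. The difference passed in WT (-1.03 ± 0.21, adjusted p = 0.0166) and when averaged (-0.97 ± 0.15, adjusted p = 0.00229). In KO it was -0.91 ± 0.21 with an adjusted p of 0.0570. Leaving out WT control replicate 2 or 3 moved the WT p-value to 0.0508 or 0.0569, within a range of 0.00211 to 0.103 over 24 settings.

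Psmb10, the trypsin-like immunosubunit, stood at 37.4, 30.8 and 53.7 in the WT controls and 14.4, 18.9 and 19.6 after IRI. The KO controls gave 58.6, 38.4 and 62.0 and the KO IRI libraries 26.5, 27.6 and 28.1. Again no IRI library reached the lowest control of its genotype. The fall was -1.13 ± 0.23 in WT (adjusted p = 0.0154) and -1.02 ± 0.16 averaged (adjusted p = 0.00280). The KO difference of -0.90 ± 0.23 did not pass (adjusted p = 0.0780). Without WT IRI replicate 1 the WT p-value was 0.0593, within a range of 0.00367 to 0.0799.

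PA28 divided by subunit. Psme1 (PA28 alpha) and Psme2 (PA28 beta) build the interferon-inducible ring, and Psme3 (PA28 gamma) builds the nuclear one. Psme1 read 82.0, 85.4 and 94.3 in the WT controls and 42.1, 46.7 and 41.5 after IRI. In KO it read 117.2, 86.3 and 124.1 against 68.2, 63.8 and 71.3. Neither pair of groups overlapped, and the fall was -0.99 ± 0.15 in WT (adjusted p = 0.00361) and -0.83 ± 0.10 averaged (adjusted p = 0.000756). The KO fall of -0.66 ± 0.15 only just passed (adjusted p = 0.0490): it passed in 6 of 24 other settings, with adjusted p from 0.00741 to 0.176. Leaving out any library other than KO control replicate 2 took its adjusted p above the threshold. Psme2 varied more within groups, at 46.2, 56.0 and 47.2 in the WT controls, 19.0, 16.4 and 43.1 in WT IRI, 79.6, 37.7 and 74.9 in the KO controls and 60.9, 31.5 and 29.4 in KO IRI. The KO groups overlapped, and the averaged difference of -0.84 ± 0.29 did not pass (adjusted p = 0.0831). Psme2b, a copy of Psme2 whose reads may be divided between the pair, fell by 0.83 ± 0.21 averaged (adjusted p = 0.0240). Psme3 pointed the other way, with means of 26.98 ± 2.04 (SD) and 30.9 ± 1.86 in WT and 27.7 ± 6.28 and 33.5 ± 2.71 in KO, and did not pass (0.24 ± 0.12, adjusted p = 0.209).

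**Figure D1:**
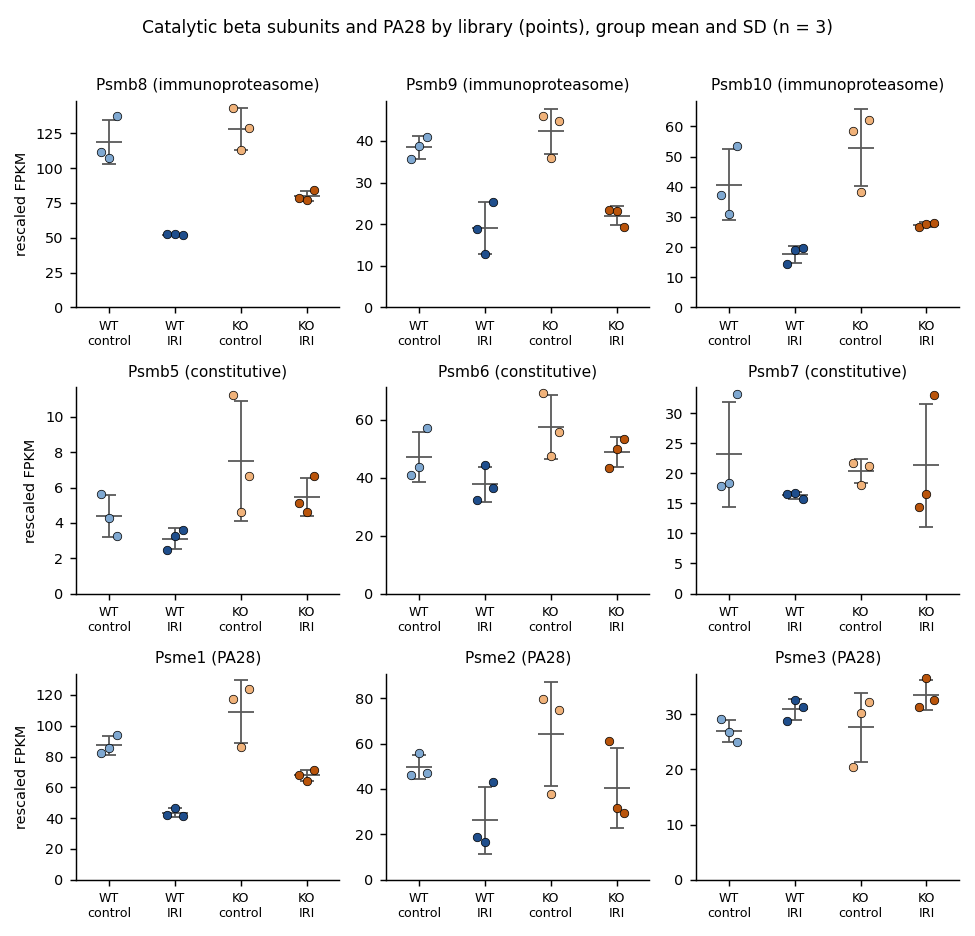
Rescaled FPKM (y axis, linear from 0) of the 6 catalytic beta subunits and the 3 PA28 subunits in the 4 groups; points are libraries, bars the group mean and SD of 3. Psmb8 sits between 51.7 and 52.4 in WT IRI and between 77.2 and 84.2 in KO IRI, below every control, while Psmb7 and Psme3 overlap between conditions in at least 1 genotype.

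None of the constitutive counterparts had such a gap in both genotypes. Psmb5 read 5.61, 4.29 and 3.27 in the WT controls against 2.45, 3.23 and 3.61 after IRI, and 11.2, 4.59 and 6.68 against 5.14, 4.60 and 6.68 in KO. Psmb6 read 40.9, 43.7 and 57.1 against 32.4, 44.4 and 36.3 in WT, and 69.2, 47.5 and 55.8 against 43.2, 49.8 and 53.3 in KO. Both overlapped in both genotypes. Psmb7 was 17.9, 18.4 and 33.2 in WT controls and 16.6, 16.8 and 15.8 after IRI, which did not overlap, and 21.8, 18.0 and 21.2 against 14.3, 16.6 and 33.1 in KO, which did. The averaged differences of Psmb5 (-0.36 ± 0.20), Psmb6 (-0.27 ± 0.13) and Psmb7 (-0.22 ± 0.21) had adjusted p-values of 0.284, 0.219 and 0.536.

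Ratios of paired catalytic subunits do not depend on how libraries are scaled. Psmb9/Psmb6 was 0.869, 0.890 and 0.718 in the WT controls and 0.583, 0.290 and 0.700 after IRI. In KO it was 0.665, 0.758 and 0.803 in controls and 0.542, 0.465 and 0.363 after IRI, so that no group overlapped its control. Over both genotypes the mean log2 ratio was lower by -0.73 after IRI (exact two-sided permutation test over 400 arrangements, p = 0.005, the smallest it can give, and 0.015 adjusted over 6 tests). Psmb10/Psmb7 was 2.09, 1.68 and 1.62 in the WT controls against 0.865, 1.13 and 1.25, and 2.69, 2.13 and 2.92 in the KO controls against 1.85, 1.66 and 0.847. It did not overlap in either genotype and was lower by -0.82 on the log2 scale (exact permutation p = 0.005, adjusted 0.015). Psmb8/Psmb5 was more variable, at 19.9, 25.0 and 42.0 against 21.4, 16.2 and 14.3 in WT and 12.7, 24.5 and 19.2 against 15.3, 16.8 and 12.6 in KO. Its difference of -0.49 did not pass (exact permutation p = 0.06, adjusted 0.105), and Psmb5 has the lowest level of the 6 genes. The share of the 6 catalytic subunits held by Psmb8, Psmb9 and Psmb10 was 60.9% ± 3.67 (SD) in WT after IRI and 63.4% ± 4.40 in KO after IRI. None of the 3 ratios passed between genotypes: the log2 differences of KO from WT were -0.40 for Psmb8/Psmb5, -0.14 for Psmb9/Psmb6 and 0.44 for Psmb10/Psmb7 (exact permutation p adjusted over the 6 tests 0.15, 0.51 and 0.105). That of Psmb10/Psmb7 passed without KO IRI replicate 3 (0.62, adjusted p = 0.015).

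**Figure D2:**
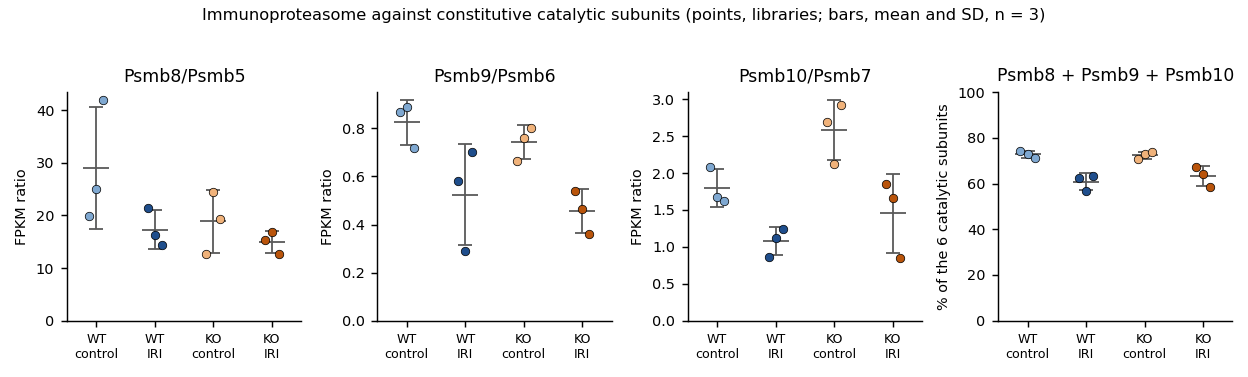
FPKM ratios of each immunoproteasome subunit to its constitutive counterpart, and the percentage of the summed FPKM of the 6 catalytic subunits that comes from Psmb8, Psmb9 and Psmb10 (y axes, linear from 0); points are libraries, bars mean and SD of 3. Both Psmb9/Psmb6 and Psmb10/Psmb7 are lower after IRI without overlap in either genotype, whereas Psmb8/Psmb5 overlaps in both.

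Among the core rings, 0 of 7 alpha subunits and 0 of 7 constitutive beta subunits passed in either direction after IRI. Of all tested genes, 13.7% passed in either direction in the averaged comparison, so counts of 0 in lists this short say little. Averaged over genotype, the median difference was -0.18 over the alpha ring and -0.22 over the constitutive beta ring, against -0.97 over the immunoproteasome genes and 0.06 over all tested genes. Psma7, an abundant gate subunit, read 56.6, 39.4 and 37.3 in WT controls and 48.8, 63.2 and 25.9 after IRI. Its groups overlapped, as did those of Psmb4 (means of 48.3 ± 6.60 and 45.2 ± 1.52 in WT).

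In the cap 1 gene moved. Psmc5, an ATPase of the base, read 16.3, 16.1 and 23.0 in the WT controls and 10.1, 10.4 and 12.1 after IRI. In KO it read 25.1, 21.3 and 26.2 against 16.2, 16.4 and 19.5. The groups did not overlap in either genotype, and it fell by 0.70 ± 0.16 in WT (adjusted p = 0.0255) and by 0.58 ± 0.11 averaged (adjusted p = 0.00823). The WT result was lost in 7 of 24 alternatives (adjusted p from 0.00540 to 0.107), among them the values as deposited (0.0714) and the fits without WT control replicate 3 (0.0664), WT IRI 1 (0.0819) or WT IRI 2 (0.0815). In KO the difference was -0.45 ± 0.16 (adjusted p = 0.190). A small nuclear RNA gene, Gm23645, lies within Psmc5 and read 6.46 FPKM as deposited. Its neighbour in the ATPase ring, Psmc4, had higher values after IRI in both genotypes without overlap (16.3, 14.4 and 14.3 against 17.5, 21.1 and 17.3 in WT, and 18.9, 17.3 and 19.7 against 19.99, 22.1 and 28.9 in KO) but did not pass (0.30 ± 0.11, adjusted p = 0.0873). The median difference was -0.00 over the 6 ATPases, 0.00 over the other base subunits and 0.08 over the 8 lid subunits. None of the 8 lid subunits, the 3 other base subunits or the 3 assembly chaperones passed, against 13.7% of all tested genes in the averaged comparison. The nearest were Psmd6 of the lid (0.42 ± 0.15, adjusted p = 0.107) and the chaperone Psmd10 (-0.52 ± 0.19, adjusted p = 0.107).

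**Figure D3:**
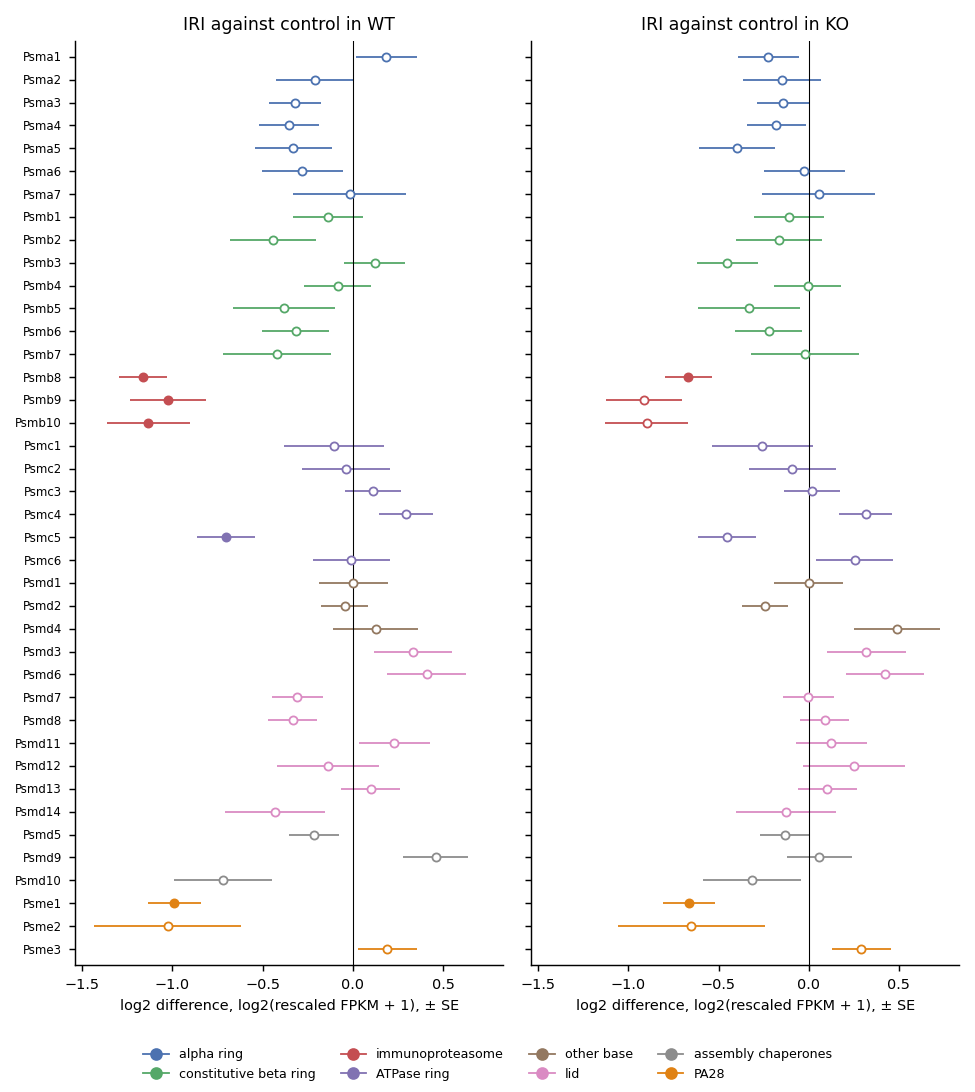
Log2 difference of IRI from control (x axis, log2(rescaled FPKM + 1), bars ± SE of the fit) for the 40 genes, in WT on the left and KO on the right; colours give the subcomplex and filled points an adjusted p below 0.05. In WT 5 points are filled, all below 0, and in KO 2, Psmb8 and Psme1.

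Summed over genes, Psmb8, Psmb9 and Psmb10 went from 197.8 ± 29.7 (SD, n = 3) in WT controls to 88.8 ± 6.85 after IRI, and from 223.4 ± 32.1 to 129.4 ± 1.97 in KO. The 34 genes outside the immunoproteasome and PA28 summed to 810.9 ± 82.5 and 754.5 ± 18.7 in WT, and to 942.5 ± 61.8 and 954.0 ± 186.9 in KO. Markers of the sorted cells moved with the immunoproteasome. The 10 CD4 T cell markers summed to 1646 to 1807 in WT controls and 761 to 960 in WT IRI. They summed to 1883 to 2321 in KO controls and 1297 to 1535 in KO IRI. Averaged over genotype, 7 of the 10 fell with IRI. For this and the marker counts that follow, 7.33% of all 19288 tested genes were lower and 1225 higher. Neutrophil markers (4 of 7 tested genes higher) summed to 4.66 to 9.07 in WT controls against 25.8 to 45.7 after IRI, and to 2.29 to 3.70 against 4.13 to 31.3 in KO. CD8 T and NK cell markers, from other cells that use the immunoproteasome, summed to 34.01 to 50.4 against 23.2 to 35.1 in WT and 31.6 to 54.1 against 10.2 to 19.5 in KO, with 5 of 8 lower. Of B and plasma cell markers 3 of 7 tested were lower and 0 higher. Dendritic cell markers summed to 119.1 to 205.8 against 64.9 to 82.4 in WT and 188.7 to 407.2 against 56.1 to 85.0 in KO, with 4 of 8 lower. Most of that sum was H2-Ab1, an MHC class II chain that B cells and macrophages also express (103.5 to 183.1 in WT controls, 48.2 to 68.7 after IRI). Of the markers that define dendritic cells more closely, Flt3 read 0.587 to 1.73 in WT controls and 1.10 to 1.39 after IRI, and Zbtb46 1.22 to 1.63 and 1.88 to 2.95. Clec9a and Xcr1 went the other way in KO, without overlap. Clec9a read 2.44 to 3.01 in KO controls and 0.239 to 0.523 after IRI, and Xcr1 1.65 to 2.81 and 0.776 to 1.18. In WT the groups of Clec9a, Xcr1 and Siglech overlapped. Itgax and Cd209a were lower after IRI in WT without overlap. Itgax read 3.76 to 5.91 in WT controls and 2.04 to 2.99 after IRI, and Cd209a 3.98 to 5.88 and 1.29 to 3.17. In KO, Itgax overlapped, and Cd209a read 3.46 to 11.7 in controls and 0.535 to 2.23 after IRI. The part of these cells in the fall of Psmb8, Psmb9, Psmb10 and Psme1 was not tested.

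**Figure D4:**
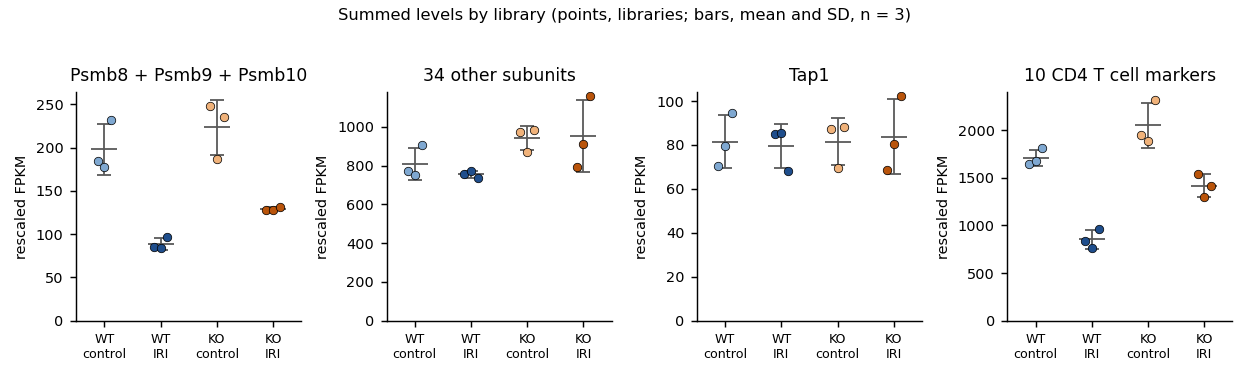
Rescaled FPKM (y axes, linear from 0) summed over Psmb8, Psmb9 and Psmb10, over the 34 genes outside the immunoproteasome and PA28, of Tap1 alone, and summed over the 10 CD4 T cell markers; points are libraries, bars mean and SD of 3. The immunoproteasome sum and the CD4 T cell marker sum are lower after IRI without overlap in both genotypes, and the Tap1 values overlap.

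Genes that act beside the immunoproteasome were followed as lists. Of 12 genes of peptide loading on MHC class I, 7 fell with IRI averaged over genotype and 0 rose. Of all 19288 tested genes, 7.33% fell and 1225 rose. They were Calr, Canx and Pdia3, chaperones of the endoplasmic reticulum, Tapbp and Tapbpl, which edit the bound peptide, B2m, the light chain of MHC class I, and Nlrc5, a transactivator of these genes (-0.72 ± 0.14 for B2m, adjusted p = 0.00841, and -0.67 ± 0.13 for Nlrc5, adjusted p = 0.00861). Tap1, a chain of the peptide transporter and the neighbour of Psmb9, read 70.5, 79.5 and 94.6 in WT controls and 85.0, 85.5 and 68.0 after IRI. In KO it read 87.4, 69.3 and 88.0 against 68.7, 80.6 and 102.3, and its averaged difference was -0.00 ± 0.13 (adjusted p = 0.994). RefSeq places the starts of Psmb9 and Tap1 226 bases apart on opposite strands of chromosome 17. The GENCODE M21 gene models of the pair overlap, and the sources used here do not say whether counting used strand, so their reads may be exchanged. Tap2 was -0.51 ± 0.20 (adjusted p = 0.130) and the heavy chain H2-K1 0.06 ± 0.14 (adjusted p = 0.822).

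Of 14 genes of interferon signalling upstream of the immunoproteasome, 4 fell and 4 rose. Of all 19288 tested genes, 1414 fell and 1225 rose in that comparison, averaged over genotype. Among those that fell, Ifng, the cytokine itself, was lower by -1.64 ± 0.24 (adjusted p = 0.00183), and Irf8 and Ifnar2 fell too. The receptor chains Ifngr1 (0.41 ± 0.10, adjusted p = 0.0234) and Ifngr2 (0.94 ± 0.17, adjusted p = 0.00465), the kinase Jak2 (0.69 ± 0.13) and Irf1, an inducer of immunoproteasome genes (0.41 ± 0.11, adjusted p = 0.0298), rose. None of the 7 assembly factors found passed: Pomp, the chaperone of core assembly, was -0.70 ± 0.22 (adjusted p = 0.0622) and Psmg2 -0.60 ± 0.18 (adjusted p = 0.0536). Of 14 genes for ubiquitin and its first enzymes, Sqstm1, a receptor for autophagy of ubiquitin-marked cargo, rose (0.73 ± 0.09, adjusted p = 0.000637), while 2 fell, among them Uba1, the main activating enzyme (-0.68 ± 0.14, adjusted p = 0.0113). Of 11 other proteasome subunits and bound factors tested, Psme2b was the only one that passed. Of 12 genes of NRF1 and NRF2 control, Maff, Mafk and Bach1 rose, and Nfe2l1 was -0.09 ± 0.09 (adjusted p = 0.527).

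Comparing KO with WT asks whether loss of Keap1, the brake on NRF2, went with higher proteasome RNA. No member passed between genotypes in any comparison, although nearly all had higher values in KO. In controls 0 of 40 passed, against 0.0363% of all genes, and after IRI 0 of 40, against 0.057%. Averaged over condition 0 of 40 passed, against 0.55% of all genes. An unadjusted p below 0.05 was found for 6 of the 40 in controls, against 2129 of all 19288 tested genes. It was found for 10 after IRI, against 3179, and for 17 averaged, against 4125. Differences above 0 numbered 37 of 40 in controls, 38 of 40 after IRI and 39 of 40 averaged, the last against 10364 of 19288 genes. The averaged median was 0.30 over the 40 genes and 0.04 over all genes. The background was higher among expressed genes. With a filter of 5 FPKM, the median of all 10227 genes was 0.13 and 69.5% lay above 0. The 39 members left by that filter had a median of 0.31, and 38 lay above 0.

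The 3 members with the smallest averaged p were Psmd7, Psme1 and Psmc5. Psmd7, a lid subunit that holds the deubiquitinase Psmd14, read 14.8, 12.0 and 15.5 in WT controls and 17.8, 17.7 and 19.7 in KO controls. After IRI it read 12.9, 10.6 and 10.1 in WT and 16.7, 18.0 and 20.5 in KO, so that KO lay above WT without overlap in both conditions (0.52 ± 0.10, adjusted p = 0.0513). Psme1 (0.47 ± 0.10, adjusted p = 0.0582), Psmc5 (0.51 ± 0.11, 0.0595) and Psmb8 (0.36 ± 0.09, 0.0727) overlapped between genotypes in controls and not after IRI. In all, every KO library lay above every WT library for 9 members in controls, against 7.91% of all genes, and for 12 after IRI, against 11.8%. Psmb5, a known NRF2-responsive subunit, had the largest averaged difference of the 40 at 0.63 ± 0.20, but KO controls spread from 4.59 to 11.2 and its adjusted p was 0.115. Psmb10 was 0.50 ± 0.16 (adjusted p = 0.121), Psmb6 0.32 ± 0.13 (0.196), Psme2 0.48 ± 0.29 (0.370), Psmb9 0.18 ± 0.15 (0.518), Psmb7 0.07 ± 0.21 (0.871) and Psme3 0.06 ± 0.12 (0.788).

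This comparison turned on the scaling. As deposited, 21 of the 40 were higher in KO averaged over condition and 0 lower, against 11.9% of all genes that were higher, and the median of all genes was itself shifted by 0.29. They included 4 of 6 ATPases, 3 of 3 other base subunits, 4 of 7 constitutive beta subunits with Psmb5 and Psmb6, and 3 of 7 alpha subunits. The median over the 40 was 0.60 as deposited, so that it lay above the shift of all genes under both scalings. In 17 of the 23 alternatives the number stayed at 0, among them quantile normalization, both other pseudocounts, no filter, the replicate block and the fit without the 3 libraries that stand apart. It was 2 for a common sum of protein-coding FPKM (1.08% of all genes higher), 3 when the filter was raised to 5 FPKM (2.18%) and 11 with weights on libraries (4.82%). Leaving out KO control replicate 2 gave 7 (2.19%), and leaving out WT control replicate 3 gave 1 (0.264%). KO IRI replicate 3 held the highest value of the 12 libraries for 15 of the 40 genes. The same library had the highest marker sums for proximal tubule (294.6) and for loop and distal tubule (274.6). Beside these values, the CD4 T cell marker sum was higher in KO than in WT in both conditions, and B and plasma cell markers summed to 166.5 to 881.7 in KO controls against at most 51.2 in WT controls. The part of these in the difference was not tested.

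**Figure D5:**
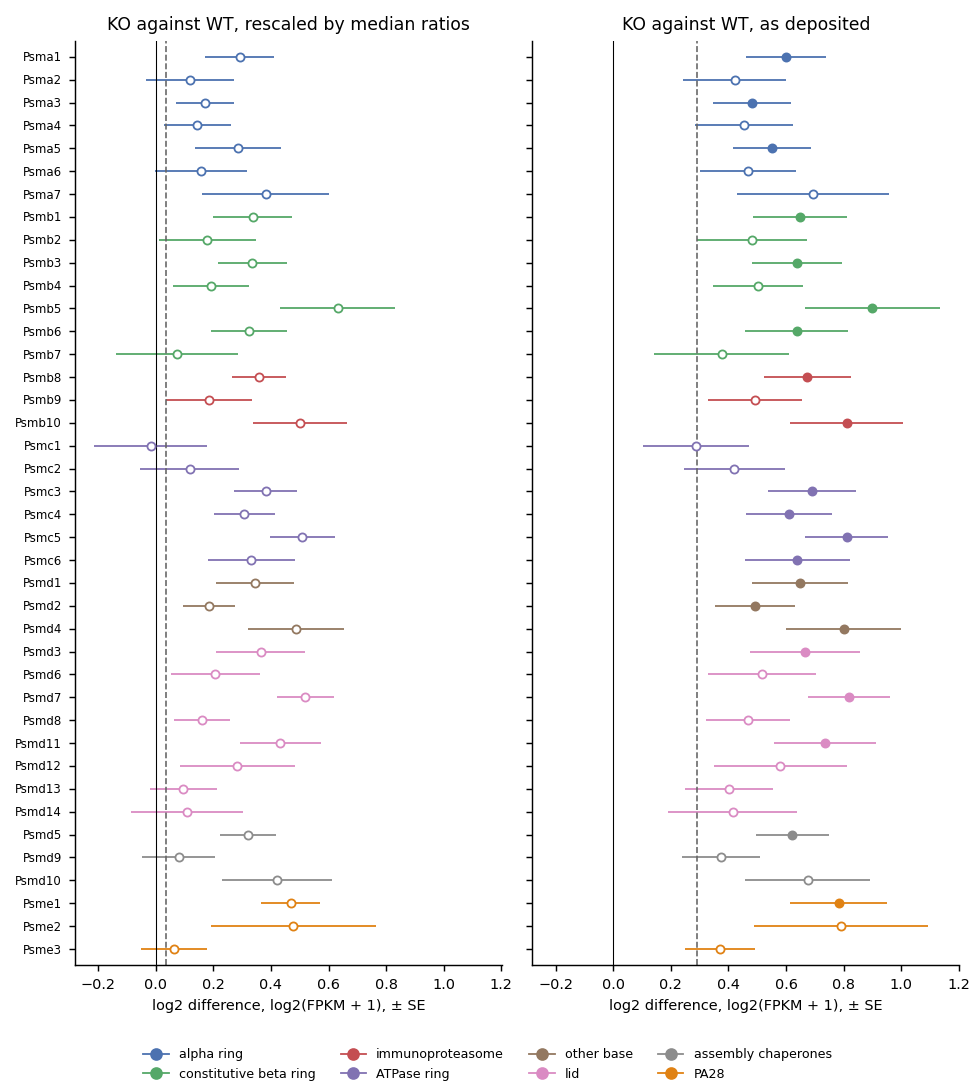
Log2 difference of KO from WT averaged over condition (x axis, log2(FPKM + 1), bars ± SE of the fit) for the 40 genes, rescaled on the left and as deposited on the right; dashed lines mark the median of all 19288 tested genes, and filled points an adjusted p below 0.05. No point is filled after rescaling and 21 are as deposited, where the dashed line moves from 0.04 to 0.29.

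NRF2 targets measured in the same cells gave the reference. Of 17 tested targets 8 rose in KO averaged over condition and 0 fell, against 73 higher and 33 lower of all 19288 tested genes. Nqo1, a quinone reductase, read 0.108, 0.175 and 0 in WT controls and 5.13, 4.85 and 6.34 in KO controls (2.30 ± 0.18 averaged, adjusted p = 0.000572). Prdx1, a peroxiredoxin, read 36.8, 37.7 and 40.03 in WT controls and 90.2, 78.5 and 83.7 in KO controls (1.09 ± 0.08, adjusted p = 0.000542). The differences of Nqo1 and Prdx1 were each larger than that of any proteasome gene. Over the 17 targets the median was 0.82, and 16 differences lay above 0. Some other targets moved little or the other way. Pgd averaged 14.4 in WT controls and 15.1 in KO controls, and Slc7a11 3.48 and 1.65. Nfe2l1, which encodes NRF1, was 0.32 ± 0.09 (adjusted p = 0.0792).

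Whether the response to IRI differed between genotypes was tested as an interaction, and 0 of 40 members passed, against 0.00518% of all genes. An unadjusted p below 0.05 was found for 2 of the 40, Psmb8 and Psmb3, against 940 of all 19288 tested genes. Psmb8 had an interaction of 0.50 ± 0.19 (adjusted p = 0.906), its fall being -1.16 in WT and -0.67 in KO. After IRI it stood at 52.1 ± 0.426 in WT and 80.0 ± 3.71 in KO, without overlap, a difference of 0.61 ± 0.13 that did not pass (adjusted p = 0.125). The other gene below that unadjusted p was Psmb3, a structural subunit of the beta ring, which read 13.96, 17.2 and 16.3 in WT controls and 17.9, 15.4 and 18.5 after IRI, and 27.5, 20.5 and 26.9 against 14.4, 20.8 and 18.8 in KO (-0.57 ± 0.24, adjusted p = 0.906). For the other catalytic and PA28 genes the interactions ran from 0.05 ± 0.40 (Psmb5) to 0.40 ± 0.43 (Psmb7). Those of Psmb6 (0.10 ± 0.26), Psme3 (0.10 ± 0.23), Psmb9 (0.11 ± 0.30), Psmb10 (0.24 ± 0.33), Psme1 (0.33 ± 0.21) and Psme2 (0.38 ± 0.57) lay between, each within 2 SE of 0.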

How the data were processed

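RNA of 12 samples of flow-sorted kidney CD4 T cells (3 each of WT control, WT IRI, KO control and KO IRI) was sequenced from 1 ng of total RNA as 36-base pairs, per the labels. The authors deposited 1 table of FPKM per gene, per the file headers. Build GRCm38 and the tools Cufflinks 2.2.1, TopHat2 2.1.0, Partek 7.0 and bcl2fastq 2.17.1.14 are listed, without roles, per the submitters' processing notes. The annotation and strand setting are not given in the sources used here. FPKM keep no read depth, so no counting interval is given, and a 0 may be a failed estimate.

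Of 52632 gene IDs, 52399 were paired with a symbol. Each library was divided by the median ratio to the geometric mean over 16018 genes above 0 in all 12. The 19288 genes whose deposited FPKM averaged 1 or more entered limma 3.58.1 in R 4.3.3, on log2(value + 1) with a mean-variance trend, 1 mean per group (8 residual degrees of freedom), Benjamini-Hochberg adjustment within each of 7 comparisons and a threshold of 0.05. The procedure was tested on simulated data. Ratios used exact permutation within the strata of the other factor (scipy 1.17.1). Promoters came from RefSeq, gene models from GENCODE M21.

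The members and lists were chosen with earlier results of these data known. The catalytic and PA28 genes were named in every comparison, others where they passed, or the 3 with the smallest p where none did, and the highest and lowest of each subcomplex. Alternatives were other scalings, pseudocounts, filters, variance models, library weights, a replicate block and left-out libraries. Groups share replicate numbers, but the labels do not tie a number to an animal or day. Single results for a few genes of the lists are not reported here.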

Additional observations from a re-analysis of the deposited data

How the results depend on the processing

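Averaged over genotype, the 5 genes lower after IRI passed in all 23 alternatives. The number of members that passed was 9 with library weights (8 lower, 1 higher), where 22.4% of all genes passed in either direction against 13.7% without weights, and 5 to 8 with 1 library left out (9.48% to 14.1% of all genes). For IRI in WT it was 2 when only the groups compared were fitted (2.84%), 3 without the 3 libraries that stand apart (3.80%), and 3 to 5 with 1 library left out (3.81% to 8.06%). For IRI in KO it was 0 as deposited, without a filter, without the trend, with only the groups compared and without those 3 libraries (0.223% to 1.48% of all genes), 5 with library weights (7.14%), and 0 to 3 with 1 library left out (0.575% to 3.38%). For KO against WT it was 4 after IRI with library weights (2.22%). Averaged over condition it was 21 as deposited (13.7%), 2 for a common sum (1.38%), 3 with a filter of 5 FPKM (3.30%), 11 with library weights (10.04%), 0 to 7 with 1 library left out (0.114% to 6.89%) and 0 in the other settings. Psmb9/Psmb6 and Psmb10/Psmb7 after IRI were -0.64 and -0.64 from group medians (adjusted p = 0.06) and -0.95 and -0.89 without those 3 libraries (0.1), where fewer arrangements raise the smallest p. With 1 library left out, Psmb8/Psmb5 after IRI ran from -0.62 (without KO control replicate 1, adjusted p = 0.03) to -0.34, and Psmb10/Psmb7 between genotypes from 0.34 to 0.62. With the replicate number as a block, 1 member passed for IRI in KO (1.59% of all genes), and no other call of the counts changed beyond 1.5 times. With that block the ratios kept their values of -0.73 and -0.82 at an exact adjusted p of 0.09375. Both had the smallest exact p that 64 arrangements can give (0.03125), so the adjusted p cannot show whether the block weakened them. Of 18 same-numbered pairs of libraries 1 correlated above 0.1 (-0.03 to 0.21), and 6 of 12 libraries correlated best with their own number, so the numbers were not taken to pair samples. The cause of these changes was not tested. Groups of 3 FPKM libraries limit what could pass, and read depth behind each value is unknown.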

Other observations

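Psmb9 and Tap1, which share an upstream region, were set side by side after their values were seen. The Psmb9/Tap1 ratio was 0.504, 0.489 and 0.434 in WT controls and 0.222, 0.150 and 0.373 after IRI. In KO it was 0.527, 0.519 and 0.509 against 0.341, 0.287 and 0.189, so that all 6 IRI libraries lay below all 6 controls. The mean log2 ratio was lower by -1.002, given as a description with no test because the pair was chosen for its values. WT IRI replicate 3 had the highest ratio of the IRI libraries.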
